A study of Mus musculus and other sequences with 2 samples.

Results

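The mouse miRNA assays whose name ends in # measure the minor arm of a miRNA hairpin, the arm that older nomenclature marked with an asterisk. They were taken by name from the Ct table of a TaqMan rodent miRNA array, as all assays that start with mmu and end with the mark, on either card. There were 108 of them among the 750 miRNA assays of the array, 7 on card A and 101 on card B, and they carried 105 names because miR-136#, miR-376a# and miR-488# each had 2 assays. For 87 of the assays (85 names) the array also held an unmarked mouse assay of the same name, the other arm of the hairpin, and each was compared with it. The other 21 assays (20 names) had no such counterpart, for example let-7f-1#, miR-193#, miR-877# and miR-297a#.

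Zygotes of superovulated CD1 females mated with CD1 males, an outbred mouse stock, were cultured in 5% O2 and 5% CO2 at 37 °C. The females were 3 weeks old by the labels and 3 to 4 weeks old by the methods. At 99 h after hCG (the hormone injected to trigger ovulation), 25 embryos were moved into an 8 µL droplet of BSA-free KSOM, an embryo culture medium, and stayed there for 17 h, until 116 h. The labels call them blastocysts at that point, whereas by the methods they were compacted or cavitating morulae, which had become blastocysts when the medium was taken. The labels give the supplement of the medium as 0.1% polyvinylacetate, while the methods name polyvinyl alcohol (PVA) for the other BSA-free droplets of the study. The paper's account of the array also names PVA as the substitute for BSA. The control was a droplet of the same medium held for the same 17 h without embryos, referred to as blank media. From the conditioned droplet 6 µL of whole medium was lysed without RNA extraction, reverse transcribed, pre-amplified for 12 cycles and run on both cards. Each medium was 1 sample, a pool of 25 embryos in the case of conditioned media, so that no test between media was possible and every difference given here lacks a replicate check. Reverse transcription and pre-amplification are run separately for each card.

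A miRNA is cut from a hairpin RNA as a short duplex of 2 strands, 1 from the 5′ arm and 1 from the 3′ arm. An Argonaute protein keeps 1 strand as the guide and the other, the passenger strand, is usually degraded, so that the guide arm is the more abundant in most tissues. The strand with the less tightly paired 5′ end tends to be kept, and guides often begin with U or A. The guide binds its targets mainly through the seed, its bases 2 to 8, and the arms of a hairpin have different seeds and therefore different targets.

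The mature sequences below, from the RefSeq annotation of GRCm38.p6, are those of the hairpins on which the comparison of the arms turned, with the seed in capitals. Coordinates are those of the marked arm. The deposited table does not say whether a marked name is the 5p or the 3p arm, so arms were assigned from the present names of the mature miRNAs. The first set is the miR-290 cluster of chromosome 7, whose miRNAs are abundant in pluripotent cells of the mouse embryo.
miR-293# (miR-293-5p, chr7:3220356-3220377, plus strand): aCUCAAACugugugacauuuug
miR-293 (miR-293-3p): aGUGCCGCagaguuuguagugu
miR-294# (miR-294-5p, chr7:3220655-3220676, plus strand): aCUCAAAAuggaggcccuaucu
miR-294 (miR-294-3p): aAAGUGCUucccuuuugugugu
miR-295# (miR-295-5p, chr7:3220779-3220800, plus strand): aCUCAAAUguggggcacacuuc
miR-295 (miR-295-3p): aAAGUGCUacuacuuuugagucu
The marked arms of this cluster shared bases 2 to 7 (CUCAAA) and differed from each other in base 8. It was the only set of 3 marked names with the same bases 2 to 7 among the 75 marked names with a sequence.

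The next set holds hairpins in which both arms were measured in conditioned media, with the marked arm earlier for miR-29b, miR-191 and miR-15b and later for miR-744.
miR-29b# (miR-29b-1-5p, chr6:31063067-31063088, minus strand): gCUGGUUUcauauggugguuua
miR-29b (miR-29b-3p): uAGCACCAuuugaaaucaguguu
miR-191# (miR-191-3p, chr9:108568367-108568388, plus strand): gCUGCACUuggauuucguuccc
miR-191 (miR-191-5p): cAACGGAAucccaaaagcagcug
miR-15b# (miR-15b-3p, chr3:69009813-69009834, plus strand): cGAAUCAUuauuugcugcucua
miR-15b (miR-15b-5p): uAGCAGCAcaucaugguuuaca
miR-744# (miR-744-3p, chr11:65734742-65734763, minus strand): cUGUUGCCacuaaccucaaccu
miR-744 (miR-744-5p): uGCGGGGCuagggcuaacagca
The last set holds hairpins of which the marked arm alone was detected in conditioned media.
miR-93# (miR-93-3p, chr5:138165536-138165557, minus strand): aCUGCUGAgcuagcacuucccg
miR-93 (miR-93-5p): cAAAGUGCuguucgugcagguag
miR-141# (miR-141-5p, chr6:124717959-124717980, minus strand): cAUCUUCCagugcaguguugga
miR-141 (miR-141-3p): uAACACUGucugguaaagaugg
miR-183# (miR-183-3p, chr6:30169672-30169693, minus strand): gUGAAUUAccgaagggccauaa
miR-183 (miR-183-5p): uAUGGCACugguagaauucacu
miR-99b# (miR-99b-3p, chr17:17830232-17830253, plus strand): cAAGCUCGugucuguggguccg
miR-99b (miR-99b-5p): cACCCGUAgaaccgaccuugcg

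The Ct is the amplification cycle at which the fluorescence of a well crosses the threshold of the instrument, so that a lower Ct is an earlier signal, and a well that never crossed it has no Ct. An assay was called detected at a Ct below 35. The paper used the same Ct limit but also required a minimum change of the reporter fluorescence, which was not applied here. Its detected sets were smaller in both media, so an assay called detected here need not have been detected in the paper. U6, a small nuclear RNA with 4 wells on each card, had a mean Ct in conditioned media of 20.9 ± 0.676 (SD, 4 wells) for card A and 19.96 ± 0.830 for card B. The means in blank media were 24.98 ± 3.22 and 27.0 ± 0.230. Wells with a Ct before the earliest U6 well, 18.99, are called early below. They were common in both media, with 78 of the 750 miRNA assays in each, and 47 of these were early in both. Among the 108 marked assays 11 were early in conditioned media, 8 in blank media and 6 in both. The part of such wells in the results was not tested. Counts of detection in each medium and of the order of the arms are given with and without them. Other counts, among them those of assays detected in both media, of families and of first bases, include them.

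The error between assays is known only from pairs of assays of the same name. Of 26 names with 2 assays there were 8 cases in which both wells had a Ct below 35 in the same medium, with a median difference of 3.74 cycles and a range of 1.25 to 14.7. Without early wells 7 cases remained, with a median of 3.40 and a range of 1.25 to 7.42. In 15 further cases only 1 of the 2 wells was below 35. Among the marked names, the 2 miR-136# assays came at 26.4 and 29.3 in conditioned media, and 1 miR-376a# assay came at 13.1 while the other had no Ct. Assays of the arms differ in primers and may differ in efficiency, so a difference of Ct between arms is a difference between assays and does not by itself give the ratio of the strands.

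In conditioned media 30 of the 108 marked assays were detected, 27.8%, against 37.3% of all 750 miRNA assays and 40.04% of the 567 unmarked mouse assays. The marked assays lay almost entirely on card B, where 29 of 101 were detected (28.7%) against 88 of 237 unmarked mouse assays (37.1%). Without early wells 19 of the 108 marked assays remained, against 202 of all 750 and 169 of the 567 unmarked mouse assays. Most of the rest gave no signal of any kind, since 73 of the 108 had no Ct in either medium (67.6%), compared with 392 of all 750 (52.3%). The Ct limit decided little, as 32 marked assays had any Ct in conditioned media. Just inside it were miR-34c# at 34.1 and miR-295# at 34.8, and just outside were miR-467# at 35.8 and miR-872# at 35.95.

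In blank media 17 of the 108 marked assays were detected (15.7%), against 29.1% of all miRNA assays and 31.9% of the unmarked mouse assays. On card B the shares were 15.8% of the marked and 28.3% of the unmarked mouse assays. Of the 17, 8 were early and 9 were not, while among all miRNA assays detected in blank media 78 were early and 140 were not. No marked assay in blank media had a Ct between 30 and 35, a range that held 39 of all 750 miRNA assays in that medium. In conditioned media 5 marked assays fell in that range, namely miR-322#, miR-463#, miR-183#, miR-34c# and miR-295#. It held 62 of all 750 miRNA assays there.

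Of the 108 marked assays 16 were detected in conditioned media only (14.8%), close to the 13.9% of all miRNA assays. Detection in blank media only was found for 3 (2.78%), compared with 5.6% of all assays. Both media gave detection for 14 (13.0%), compared with 23.5% of all assays. Of the 16, 15 had no Ct at all in blank media and 1, miR-34c#, had a Ct of 38.2 there. The paper's list of miRNAs exclusive to conditioned media, which also set limits on fluorescence, holds only miR-93# of the 16, as miR-93-3p. The Ct of the 16 in conditioned media ran from 7.19 to 34.8 with a median of 27.6, and 5 of them were early (miR-193#, miR-15b#, miR-133a#, miR-28# and miR-145#), before every U6 well.

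The remaining 11 assays detected in conditioned media only included the embryo-enriched miR-290 cluster. miR-293# came at 19.6 in conditioned media and had no Ct in blank media. miR-295# came at 34.8 and had no Ct in blank media, and miR-294# had no Ct in either. The marked arms of the cluster, alike in bases 2 to 7, were therefore at very different Ct values in the same droplet.

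let-7f-1#, from a family that restrains growth and pluripotency in differentiating cells, came at 23.2 in conditioned media and had no Ct in blank media. The array held no unmarked assay of that name. The other 7 marked assays of the let-7 family and miR-98 were not detected in either medium, among them let-7b#, whose seed (UAUACAA) is that of let-7f-1#.

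miR-136#, from the imprinted Dlk1-Dio3 cluster of chromosome 12, was the only marked name with a Ct below 35 from 2 assays in the same medium. Both had no Ct in blank media. miR-93#, of the proliferation-associated miR-17-92 family and its paralogues, came at 28.9 in conditioned media, miR-30b# at 28.9 and miR-744# at 29.9, all 3 without a Ct in blank media. miR-322# came later, at 30.2, as did miR-183# at 32.3, the latter from a cluster expressed in sensory cells and epithelia, and both had no Ct in blank media. miR-34c#, of a family abundant in testis and sperm, came at 34.1, so that it and miR-295# were the latest of the 11.

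The 3 assays detected in blank media only were miR-15a# at 12.9, miR-376b# at 13.3 and miR-23a# at 27.4. None of them had a Ct in conditioned media. The first 2 were early wells, and without early wells miR-23a# alone remained.

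For the 14 assays detected in both media the difference of the Ct between media, conditioned minus blank, ran from -4.50 to 4.05 cycles, with a median of 0.955. It was negative, that is earlier in conditioned media, for 4 and positive for 10. Over all 176 miRNA assays detected in both media it was negative for 85 and positive for 91, with a median of 0.054. None of the 14 was earlier or later in conditioned media by more than 5 cycles, while 10.8% of the 176 miRNA assays detected in both media were earlier and 11.4% were later by that much. U6 itself came 4.08 cycles earlier in conditioned media on card A and 7.07 cycles earlier on card B. Relative to U6 of the same card, 10 of the 14 were later by more than 5 cycles and none was earlier by more than 5. This count contains the shift of U6, which on card B alone exceeds 5 cycles, so an assay with equal Ct in both media counts as later. The same count over all miRNA assays was not made, so this one shows nothing particular to the marked assays.

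Those earlier in conditioned media were miR-470# at 5.62 against 10.1, miR-99b# at 21.2 against 24.3, miR-126# at 26.0 against 29.1 and miR-376a# at 13.1 against 16.1. miR-126 is the endothelial miRNA encoded within Egfl7, and miR-99b is encoded beside let-7e and miR-125a. Among these only miR-99b# and miR-126# were not early wells. On card A, miR-126# was the only 1 of 7 marked assays that was detected in either medium.

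The largest differences in the other direction were those of miR-30d#, which came at 24.3 in conditioned but 20.3 in blank media, and miR-141#, at 26.2 and 23.0. miR-463# came at 32.1 and 29.6, and miR-877#, from a hairpin spliced out of an intron rather than cut by Drosha, at 27.5 and 25.2. Values within 1 cycle of each other were found for 3 assays. These were miR-150#, a miRNA of lymphocytes, at 23.2 and 22.7, miR-29b# at 20.5 and 19.97, and miR-186# at 15.7 and 15.4. The remaining 3 assays, all early in both media, were miR-196a#, of the Hox clusters, at 9.40 and 7.97, miR-191# at 16.9 and 15.3, and miR-297a# at 14.9 and 12.7.

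To describe strand choice, each of the 87 marked assays with a counterpart was set against its unmarked arm in the same medium. In conditioned media both arms were detected in 20 pairs, the unmarked arm alone in 28, the marked arm alone in 6 and neither in 33. In blank media both were detected in 7, the unmarked arm alone in 23, the marked arm alone in 8 and neither in 49. The unmarked arm was thus the more often detected of the pair in both media. In 26 pairs neither arm had a Ct in either medium.

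The marked arm was more often detected where the unmarked arm was detected too. Where the unmarked arm was detected in conditioned media (48 pairs), the marked arm was detected in 20, or 41.7%, and where it was not (39 pairs), in 6, or 15.4%. Counting only marked wells that were not early, the shares were 27.1% and 10.3%. In blank media the shares were 23.3% (7 of 30) and 14.0% (8 of 57), and 13.3% and 7.02% without early marked wells. These are descriptions of the pairs, since hairpins are not replicates of a medium.

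The pattern over the media was also compared between arms. Of the 14 paired assays detected in conditioned media only, the unmarked arm was likewise detected in conditioned media only for 9, in both media for 3 and in neither for 2. Of the 12 paired assays detected in both media, the unmarked arm was detected in both for 7, in conditioned media only for 1 and in neither for 4. All 3 assays detected in blank media only had an unmarked arm that was not detected in either medium. In the opposite direction, 11 pairs had an unmarked arm detected in conditioned media only and a marked arm not detected in either.

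Where both arms were detected in conditioned media, the marked arm came earlier in 15 of 20 pairs and later in 5. The difference, marked minus unmarked, ran from -17.0 to 15.2 cycles with a median of -2.90. It was below -5 in 7 pairs and above 5 in 2. All 7 pairs with an early marked well were among the 15, and 3 of these also had an early unmarked well. In the 13 pairs without an early well the marked arm was earlier in 8 and later in 5, with a median of -1.32.

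Most pairs were measured across cards. Only 6 of the 20 had both arms on the same card, where the marked arm was earlier in 5 and the median difference was -1.49. In the 14 pairs across cards it was earlier in 10 with a median of -4.59. The card and the arm cannot be told apart in those 14 pairs, in which the marked assay was on card B and the unmarked assay on card A. Against the spread of assays of the same name, 6 of the 20 differences were larger than 7.42 cycles, the largest such difference without an early well, and 5 of these 6 had the marked arm earlier. Only 3 were larger than 14.7, the largest of all.

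The 3 differences beyond 14.7 cycles were those of miR-133a#, miR-15b# and miR-295#. miR-133a#, the minor arm of a miRNA of skeletal and cardiac muscle, came at 14.6 against 31.6 for miR-133a in conditioned media, with no Ct for either in blank media. miR-15b#, of the miR-15 family that restrains the cell cycle, came at 14.1 against 29.3, again with no Ct in blank media. In both pairs the marked well was early and the unmarked well was in the range of the other detected assays.

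miR-295 ran the other way. The unmarked arm came at 19.7 in conditioned media and miR-295# at 34.8, 15.2 cycles later, and neither had a Ct in blank media. miR-294 came at 24.1 in conditioned media but only at 37.6 in the blank, with no Ct for miR-294# in either medium. For miR-293 the order was reversed, with miR-293# at 19.6 and miR-293 at 24.6, a difference of -4.95, and no Ct of either arm in blank media. The 3 neighbouring hairpins of the cluster, which are transcribed together, thus had the marked arm 4.95 cycles earlier, without a Ct, and 15.2 cycles later. None of these wells was early, but miR-293# came within the range of the conditioned U6 wells of its card, 18.99 to 20.8. The paper's list of miRNAs exclusive to conditioned media names the 3 unmarked arms but neither miR-293# nor miR-295#.

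The other pairs with a later marked arm were miR-34c#, miR-744#, miR-30b# and 1 of the miR-136# assays. miR-34c# was 6.21 cycles later than miR-34c, which came at 27.9 in conditioned media and had no Ct in blank media. miR-744# came 3.10 cycles after miR-744 at 26.8, and miR-30b# 3.08 cycles after miR-30b at 25.8. These last 2 differences were smaller than the median difference between assays of the same name, 3.40. Against miR-136 at 27.1, the 2 miR-136# assays lay on either side, 0.607 cycles earlier and 2.25 cycles later, so that the order of the arms of miR-136 depended on the assay. A second miR-136 assay, on card A, had no Ct in either medium.

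Among pairs without an early well and with the marked arm earlier, the largest difference was that of miR-29b#, of a family that represses collagens and DNA methyltransferases. It came at 20.5 in conditioned media, 10.8 cycles before miR-29b at 31.2. In blank media miR-29b# came at 19.97 and miR-29b at 30.04, a difference of -10.1. miR-30d# came 5.28 cycles before miR-30d in conditioned media, and 12.2 cycles before it in blank media. miR-150# came 4.23 and 4.45 cycles before miR-150. These 3 pairs had both arms detected with the marked arm first in both media, the droplet without embryos included.

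Smaller differences in conditioned media were found for miR-322#, at 30.2 against 33.0 for miR-322, and for miR-126#, at 26.0 against 27.7 for miR-126, both pairs on 1 card. A second miR-322 assay on the same card had no Ct in either medium. miR-126 had no Ct in blank media whereas miR-126# came at 29.1 there. miR-463# was 1.32 cycles earlier than miR-463 (32.1 against 33.5) in conditioned media and 0.281 cycles earlier (29.6 against 29.9) in the blank. The smallest difference between assays of the same name was 1.25 cycles.

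The remaining pairs with both arms detected in conditioned media had an early marked well. miR-191#, the minor arm of a ubiquitous miRNA often used as a reference, came at 16.9 against 22.9 for miR-191. In blank media it came at 15.3 against 27.1. miR-186# and miR-186 came at 15.7 and 18.7 in conditioned media, and the blank values were nearly the same, 15.4 and 18.8. miR-196a# and miR-196a came at 9.40 and 17.0 in conditioned media, with 7.97 and 16.3 for the blank. miR-28# came 1.41 cycles before miR-28 in conditioned media, and miR-28 alone was detected in blank media, at 9.92. miR-145# came at 17.9 against 31.7 for miR-145, which was early in blank media, at 13.3, where miR-145# had no Ct.

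In blank media all 7 pairs with both arms detected had the marked arm earlier. The median difference was -8.34 cycles, with a range of -12.2 to -0.281. The 7 were miR-30d, miR-191, miR-29b, miR-196a, miR-150, miR-186 and miR-463, of which 4 had no early well. Each of these 7 pairs was also detected in both arms in conditioned media, with the same order of the arms in 7 of 7. Thus 7 of the 15 pairs with an earlier marked arm in conditioned media had the same order in the medium that had held no embryos. The other 8 could not be compared because at least 1 arm was not detected in blank media.

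The marked arm alone was detected in conditioned media for miR-93, miR-141, miR-183, miR-99b, miR-376a and miR-470. For miR-93 and miR-141 the unmarked arm had a Ct past the limit, with miR-93 at 38.2 against miR-93# at 28.9, and miR-141 at 36.6 against miR-141# at 26.2. For the other 4 the unmarked arm had no Ct in either medium. In miR-376a and miR-470 the marked well was early. miR-141# and miR-99b# were also detected in blank media, at 23.0 and 24.3, whereas miR-93# and miR-183# had no Ct there. This left miR-93 and miR-183 as hairpins whose marked arm was detected in conditioned media only, at a Ct after that of U6, with an undetected unmarked arm. In miR-141, a member of the miR-200 family of epithelial miRNAs, the unmarked arm is the one known to repress the Zeb factors.

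The unmarked arm alone was detected in conditioned media in 28 pairs, at a Ct of 10.7 to 33.3 with a median of 27.3. In 27 of the 28 the marked assay had no Ct, and in the remaining one miR-872# had a Ct of 35.95 against 10.7 for miR-872. In blank media miR-872# came at 38.8 and miR-872 at 7.51. These pairs included miRNAs of the miR-17-92 cluster and its paralogues (miR-17 at 19.2, miR-20a at 24.2, miR-363 at 24.0, miR-106b at 27.3 and miR-19a at 28.2), whose marked arms had no Ct in either medium. They also included miR-302a at 21.0 and miR-302b at 27.1, miRNAs of pluripotent cells, and the epithelial miR-200a, miR-200b and miR-200c at 23.2, 27.0 and 23.9. miR-294, at 24.1, belonged to the same class. Of the 28, miR-200b, miR-200c, miR-16, let-7e, miR-19a, miR-214, let-7b and miR-146b had no Ct in blank media in either arm. Others were also detected in the droplet without embryos. In blank media miR-302a came at 22.2, miR-302b at 28.0 and miR-200a at 26.2. There miR-17 came at 19.3, miR-20a at 26.3, miR-363 at 27.1 and miR-106b at 29.6.

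By family, no group of 2 or more marked assays was detected in full. In the miR-290 cluster 2 of 3 marked assays were detected in conditioned media and 0 of 3 in blank media, while all 3 unmarked arms were detected in conditioned media. For the miR-17-92 cluster and its paralogues 1 of 9 marked assays was detected in conditioned media (miR-93#), although 5 of the 8 with a counterpart had a detected unmarked arm. The Dlk1-Dio3 cluster had 3 of 10 marked assays detected in conditioned media and 2 of 10 in blank media. The miR-302 assays (0 of 3), those for neural miRNAs (0 of 5) and those for miR-23, miR-24 and miR-27 (0 of 4) had no marked arm detected in conditioned media. For the epithelial miRNAs the count was 2 of 5, for miR-30 it was 2 of 4, and for miR-15 and its relatives it was 2 of 5. These shares stand beside 37.3% of all miRNA assays, and the groups are too small for any of them to be read as particular to a family.

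The sequences of the arms were compared for the 71 names for which both were found. The marked arm was the 5p strand in 26 and the 3p strand in 45. The unmarked arm began with U or A in 61 of 71 names (85.9%) and the marked arm in 33 (46.5%). U alone was the first base of 45 unmarked and 9 marked arms, whereas C was that of 27 marked and 8 unmarked arms. The first 4 bases held fewer A or U in the marked arm for 37 names, the same number for 18 and more for 16. The median GC content was 50% for the marked and 42.9% for the unmarked arms, and the median length was 22 bases for both.

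Names whose marked arm was detected in conditioned media were set beside the rest. The rest included miR-15a#, miR-376b# and miR-23a#, which were detected in blank media only. In the 19 detected names with both sequences the marked arm began with U or A in 8 and the unmarked arm in 13 (68.4%). In the 52 names not detected the marked arm began with U or A in 25 and the unmarked arm in 48 (92.3%). The unmarked arms that began with another base included miR-191, miR-186, miR-93, miR-99b and miR-322, all with C. Among pairs with both arms detected in conditioned media and both sequences known, the unmarked arm began with U or A in 5 of 8 with the marked arm earlier and in 3 of 3 with it later. miR-136 stands in both counts through its 2 marked assays, and without it they were 4 of 7 and 2 of 2. The names are few and hairpins of a family share sequence, so these counts were not tested.

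The full seed, bases 2 to 8, was shared by marked arms in 6 pairs of names, none of them from the miR-290 cluster. They were let-7b# with let-7f-1#, miR-200a# with miR-200b# (AUCUUAC), miR-17# with miR-20b# (CUGCAGU), miR-302b# with miR-302c# (CUUUAAC), miR-376b# with miR-376c# (UGGAUAU) and miR-30c-1# with miR-30c-2# (UGGGAGA). At most 1 name of each pair was detected in either medium, let-7f-1# in conditioned and miR-376b# in blank media. No marked sequence was found under their names for miR-126#, miR-133a#, miR-145#, miR-30b#, miR-30d# and miR-297a#.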

How the data were processed

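Media conditioned by blastocysts and blank media were profiled once each on TaqMan Rodent MicroRNA cards A and B (v3.0). The Ct of each well was exported by the authors from the instrument software and deposited without normalization, and wells without amplification were given as undetermined. Pre-amplification moves Ct values earlier. No threshold or baseline setting is given in the sources used here, and the fluorescence change of the wells was not analysed. A deposited table of fold change between media is the authors' own comparison and was not used.

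Marked assays were paired with the unmarked mouse assay of the same name. Where that name had 2 wells, the well of lowest Ct was taken for each medium. A Ct below 35 was called detected, an undetermined well counted as above the limit, and differences were given with limits of 5 and -5 cycles. All 18 control wells were left out of counts. With 1 sample per medium no test was run. The text names every marked assay with a Ct below 35, and other names serve as examples. Arms were assigned by name for 85 of 105 marked names, as the 5p or 3p strand, and 75 of these matched a mature sequence in RefSeq (GRCm38.p6). The members, gene groups and limits were chosen with earlier results of these data known. The groups miR-302 and miR-503 were added after the values had been seen. Pairing and counting were tested on 120 simulated pairs, in which 4 of 4 checks passed. Alternatives were Ct limits of 32 and 38, any Ct, a limit of 3 cycles, Ct relative to U6 of the card, the latest well of a name, pairs within or across cards, and early wells left out. Python 3.11.15 with pandas 2.3.3 and numpy 2.4.6 was used.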

Additional observations from a re-analysis of the deposited data

How the results depend on the processing

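Of 52 recomputed values, 37 stayed within 1.5 times a count or, for a median difference between arms, within 1 SD of the 4 U6 wells of card B in that medium (0.830 cycles in conditioned and 0.230 in blank media), and none changed sign. Where 2 assays of 1 name were both detected in a medium, they differed by more than these limits. With early wells left out, 19 marked assays were detected in conditioned media, 9 in blank media and 1 in blank media only. With a limit of 3 cycles, 3 of the 14 assays detected in both media were earlier and 2 later in conditioned media. The same count over all miRNA assays was not made. Relative to U6 of the card 10 of the 14 were later by more than 5 cycles. That count contains the shift of U6 itself and was likewise not made over all miRNA assays. The median difference between arms in conditioned media moved to -4.59 with a Ct limit of 32, -4.23 with the latest well of each name, -1.49 for pairs on 1 card, -4.59 across cards and -1.32 without early wells. In blank media it moved to -6.40 with a Ct limit of 32, -4.31 on 1 card, -10.1 across cards and -7.26 without early wells. The cause of these shifts was not tested beyond the pairs each setting left out. No replicate could be left out with 1 sample per medium. No paired analysis was possible because each medium was 1 sample. Depth limits the late wells, where a missing Ct is only a signal below detection.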

Other observations

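Among the 14 marked assays named for rat on the same cards, 3 had a Ct. rno-miR-99a# came at 13.5 in conditioned and 11.8 in blank media, rno-miR-1# at 5.51 in conditioned media only and rno-miR-7# at 28.8 in conditioned media only. rno-miR-29b-1# had no Ct in either medium, whereas mmu-miR-29b#, assigned here to the same arm of the same hairpin, came at 20.5 and 19.97. rno-miR-20a# and rno-miR-125b# had no Ct in either medium, as was the case for mmu-miR-20a# and mmu-miR-125b#.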
